A study of Mus musculus with 12 samples.

Results

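The genes described here encode the initiation factors (symbols Eif1a to Eif6) and elongation factors (Eef1a1 to Eef2) of cytosolic translation, together with the inhibitors and modifying enzymes that carry the same symbols. All probe sets annotated to exactly 1 gene with a symbol that starts with Eif or Eef and a digit were taken, without the eIF2α kinases (Eif2ak) and Eef1e1. The selection gave 141 probe sets of 53 genes, of 18193 genes named on the array. Their transcripts were read on Affymetrix Mouse 430 2.0 arrays. The cells were dendritic cells (DC), grown for 6 days in 10 ng/ml GM-CSF from C57BL/6 bone marrow. The cells were taken at 0 h, before stimulation, or 1, 3, 6, 12 and 24 h after 2.5 µg/ml poly(I:C), a synthetic mimic of double-stranded RNA sensed by Toll-like receptor 3 and cytosolic receptors. The sources give different amounts: these are the labels' values, and the methods of the study state higher amounts of both agents. The age is likewise given as 3 to 4 months in one label and 8 to 10 weeks in another. Each of 2 experiments used cells of 1 mouse selected for CD11c and gave 1 array per time, so that n = 2 at each of 6 times over 12 arrays. All groups share the strain, the GM-CSF culture and the 0 h reference arrays. No array holds cells kept without poly(I:C) after 0 h, so an effect of poly(I:C) and one of time in culture cannot be told apart.

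Initiation factors bring the initiator tRNA, the mRNA and the small ribosomal subunit together. eIF2 carries the initiator tRNA as a complex with GTP and is recharged by the exchange factor eIF2B, eIF3 is the large scaffold on the small subunit, and eIF1 and eIF1A hold the subunit open for scanning. The cap of the mRNA is bound by eIF4E, joined through the scaffold eIF4G to the helicase eIF4A and its cofactors eIF4B and eIF4H, and the 4E-binding proteins compete with eIF4G for eIF4E. eIF5 and eIF5B act in GTP hydrolysis and subunit joining, eEF1A delivers aminoacyl-tRNA with eEF1B as its exchange factor, and eEF2 moves the ribosome along. In dendritic cells, maturation is known for changes in protein synthesis and its control. Transcript levels, which are what the arrays hold, say nothing of protein amount or phosphorylation.

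The values are MAS5.0 signals, an intensity in arbitrary units, scaled by the authors to the same trimmed mean of 500 on every array. The median signal of an array was 70.9 to 91.4, and 3′ to 5′ ratios of the control probe sets were 1.11 to 1.21 for Actb and 0.728 to 0.819 for Gapdh. Of 8 dendritic cell markers, 6 were bright enough to be tested and Cd209a and Flt3 were not. The signal of Itgax (CD11c) was 16176 to 24684, and the 8 genes summed to 74730 and 60720 at 0 h and 103000 and 99910 at 12 h in experiments 1 and 2. The summed signal of 6 macrophage and monocyte markers was 65850 to 98290 and of 5 neutrophil markers 1704 to 3574, while the markers of B, T, NK and mast cells and of erythroid cells stayed at or below 151 on every array. Nearly all of the neutrophil sum was S100a8, with 1508.9 to 3401.1. Ngp had a mean of 83.5, and Elane, Mpo and S100a9 were too dim to be tested. Of the tested markers, 3 of 6 of dendritic cells were higher at 12 h and 3 at 24 h, Ccr7 and Cd86 of mature cells among them at both times. Of macrophages 3 of 6 were higher at 12 h and 2 at 24 h, with Fcgr1 at both. The part of such shifts in the results below was not tested. Each array sums RNA over the whole culture, so fewer cells of a type and less RNA per cell cannot be told apart.

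Promoter windows from RefSeq (build GRCm38.p6; 42 of the 53 genes matched, 56 windows) ran from 250 bases before to 50 after each transcription start. Those of Eif3a and Eif4b, lower from 6 to 24 h, of Eif4a2, lower at 6 and 12 h, and of Eif1b, higher at 24 h, are printed here to 30 bases past the start, 5′ to 3′ on the gene's strand. Capitals mark CACGTG, the E-box that MYC and related factors bind. The Eif3a window is chr19:60790664-60790943 (minus strand), and its E-box begins at base 23 of the transcript. The Eif1b window is chr9:120492356-120492635 (plus strand), with an E-box that begins 24 bases before the start. The windows of Eif4b, chr15:102073523-102073802, and Eif4a2, chr16:23107218-23107497, are both on the plus strand and hold no CACGTG.
Eif3a: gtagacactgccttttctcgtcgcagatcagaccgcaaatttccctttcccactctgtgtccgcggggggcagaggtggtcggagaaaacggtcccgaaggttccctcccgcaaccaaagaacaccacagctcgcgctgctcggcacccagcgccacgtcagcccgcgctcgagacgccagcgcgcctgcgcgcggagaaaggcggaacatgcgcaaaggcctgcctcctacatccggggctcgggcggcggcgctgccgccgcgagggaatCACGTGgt
Eif4b: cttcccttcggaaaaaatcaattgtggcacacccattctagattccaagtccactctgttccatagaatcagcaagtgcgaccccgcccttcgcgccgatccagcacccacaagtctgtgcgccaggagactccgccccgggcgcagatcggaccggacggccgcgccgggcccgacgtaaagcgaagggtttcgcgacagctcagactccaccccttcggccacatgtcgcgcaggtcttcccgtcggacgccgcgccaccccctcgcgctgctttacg
Eif4a2: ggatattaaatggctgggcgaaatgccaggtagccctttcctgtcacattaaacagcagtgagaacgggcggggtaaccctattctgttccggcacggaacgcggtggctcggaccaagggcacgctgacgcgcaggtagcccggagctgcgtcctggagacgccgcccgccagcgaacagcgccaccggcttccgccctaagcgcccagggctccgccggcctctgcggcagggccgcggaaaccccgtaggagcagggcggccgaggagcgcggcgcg
Eif1b: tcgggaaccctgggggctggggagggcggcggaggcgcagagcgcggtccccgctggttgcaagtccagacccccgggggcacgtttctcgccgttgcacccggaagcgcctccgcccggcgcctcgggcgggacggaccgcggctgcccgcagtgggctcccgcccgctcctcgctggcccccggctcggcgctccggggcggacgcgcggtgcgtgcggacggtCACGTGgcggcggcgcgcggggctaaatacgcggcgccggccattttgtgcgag
Over both strands, CACGTG was present in 14 of the 56 windows (25%), against 7.15% of all 32851 windows in the table. By gene it was in 12 of 42, namely Eef1aknmt, Eef2, Eef2k, Eif1b, Eif3a, Eif3f, Eif3k, Eif4a1, Eif4e, Eif4h, Eif5a and Eif5a2. Among genes with a window, 2 of the 15 called lower at 12 h and 10 of the 24 other tested genes held it. Of the genes higher at 24 h, 4 had a window and 1, Eif1b, held it. Eif1b was picked for printing from these by hand, not by a rule. TGATGNAA, the form bound by ATF4 and CHOP dimers, was in 2 windows (3.57%, against 3.97% of all), those of Eef2k and Eif2s3x. The core of the interferon-stimulated response element, which interferon regulatory factors bind, was also in 2 windows (3.57%, against 3.44%), those of Eif2s3x and Eif3a. CACGTG and TGATGNAA can overlap by TG, and Eef2k held both. A match describes letters in the window only.

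Of the 141 probe sets, 116 probe sets of 50 genes had a mean signal at or above the median over all probe sets (78.4) and were tested, and 25 were not. Eif2s3y, Eif4a3 and Eef2kmt had no tested probe set. Eif1, Eif2s1, Eif3g, Eif3j, Eif4g1 and Eef1g were not among the 53 genes, so the complexes below are not complete. Eif2s3y, the Y-linked copy of Eif2s3x, had 2 probe sets that reached at most 44.6 on any array, and Eif4a3 reached at most 67.4. All differences below are log2 fold changes of signal plus 16 from a limma fit with the experiment as a block, and adjusted p values are limma's with Benjamini-Hochberg adjustment over the 22519 probe sets tested. A probe set or gene is called, and said to rise or fall, at an adjusted p under 0.05.

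No translation factor was called in the first 3 h after poly(I:C), and by 12 h more of them were lower than at any other time. At 1 h no member was called in either direction, and the background over all tested probe sets was 0.0533% called higher and 0% lower. At 3 h again none was called, beside 1.01% higher and 0.0444% lower in the background. At an unadjusted p under 0.05 1 h had 0 probe sets and 3 h had 2 higher and 4 lower, and the smallest adjusted p at those times were 1 and 0.216. At 6 h, 6 of 116 member probe sets (5.17%) were lower and 0 higher (2 at an unadjusted p under 0.05), against 1.95% lower and 3.62% higher overall. At 12 h, 42 (36.2%) were lower and 1 (0.862%) higher, where the background was 18.7% lower and 9.32% higher. At 24 h, 31 (26.7%) were lower and 8 (6.9%) higher, where it was 17.5% and 9.23%. By the F test over the 5 times, 44 of 116 (37.9%) were called, beside 28.7% of all probe sets. From 12 to 24 h directly, 4 (3.45%) rose and 0 fell (9 lower at an unadjusted p under 0.05), beside 1.87% and 2.25%. For the fits with an array left out, given next, the share over all probe sets was not taken. The lower count at 12 h was 20 when the 0 h array of experiment 1 was left out and 56 when its 24 h array was. The higher count at 24 h was 0 without the 0 h array of experiment 2.

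**Figure D1:**
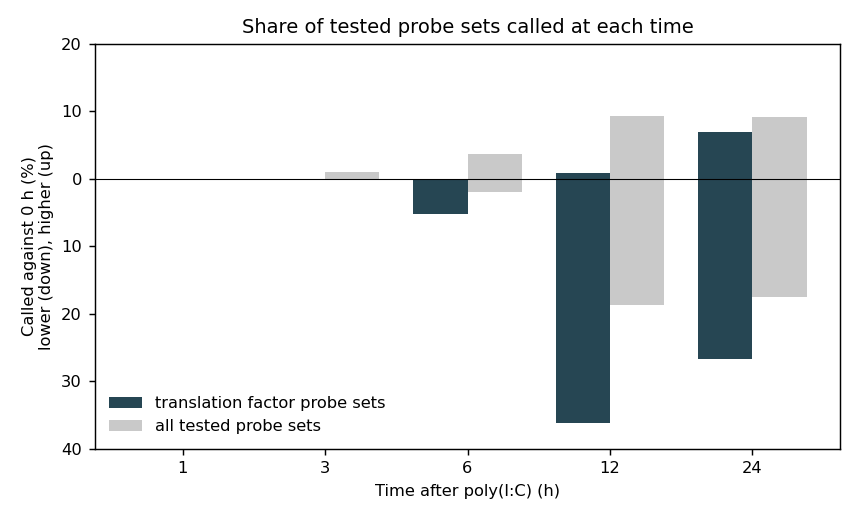
Percentage of the 116 tested translation factor probe sets (dark) and of all 22519 tested probe sets (grey) called higher (upward bars) or lower (downward bars) than at 0 h, at each time in h. At 12 h 36.2% of the translation factor probe sets lie on the lower side, against 18.7% of all.

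Counted by gene, each represented by its brightest probe set, 0 of 50 were called at 1 and 3 h, 3 were lower at 6 h, 19 at 12 h and 11 at 24 h, and 5 were higher at 24 h. The 3 genes lower at 6 h were Eif3a, Eif4a2 and Eif4b, and all 3 were also lower at 12 h. Of the 19, 9 were also lower at 24 h and 10 were not called there, and Eef1akmt1 and Eif4g2 were lower at 24 h and not called at 12 h. At 12 h, however, 2 other probe sets of Eef1akmt1 and 1 of Eif4g2 were called lower. At 12 h 10 of the 19 were lower by at least 2-fold. In all, 26 genes were called at 1 or more times, none in both directions, and 24 were called at none. The median change of the 50 genes was 0.01 at 1 h, -0.06 at 3 h, -0.23 at 6 h, -0.41 at 12 h and -0.24 at 24 h, beside -0.02, -0.06, -0.16, -0.23 and -0.19 over all tested probe sets. Centring each array on its median moved that of all probe sets at 12 h from -0.23 to 0.08, after which 12 genes were lower at 12 h, while 24 h had 8 in each direction. Under this centring the background at 12 h was 14.5% higher and 9.79% lower, and at 24 h 14.1% higher and 11.4% lower. Quantile normalization gave 21 lower genes at 12 h, and 16 lower and 5 higher at 24 h. Of all probe sets tested with it, 14.3% fell by 12 h, beside 10.6% that rose. By 24 h the falling share was 14.6% and the rising share 10.8%.

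**Figure D2:**
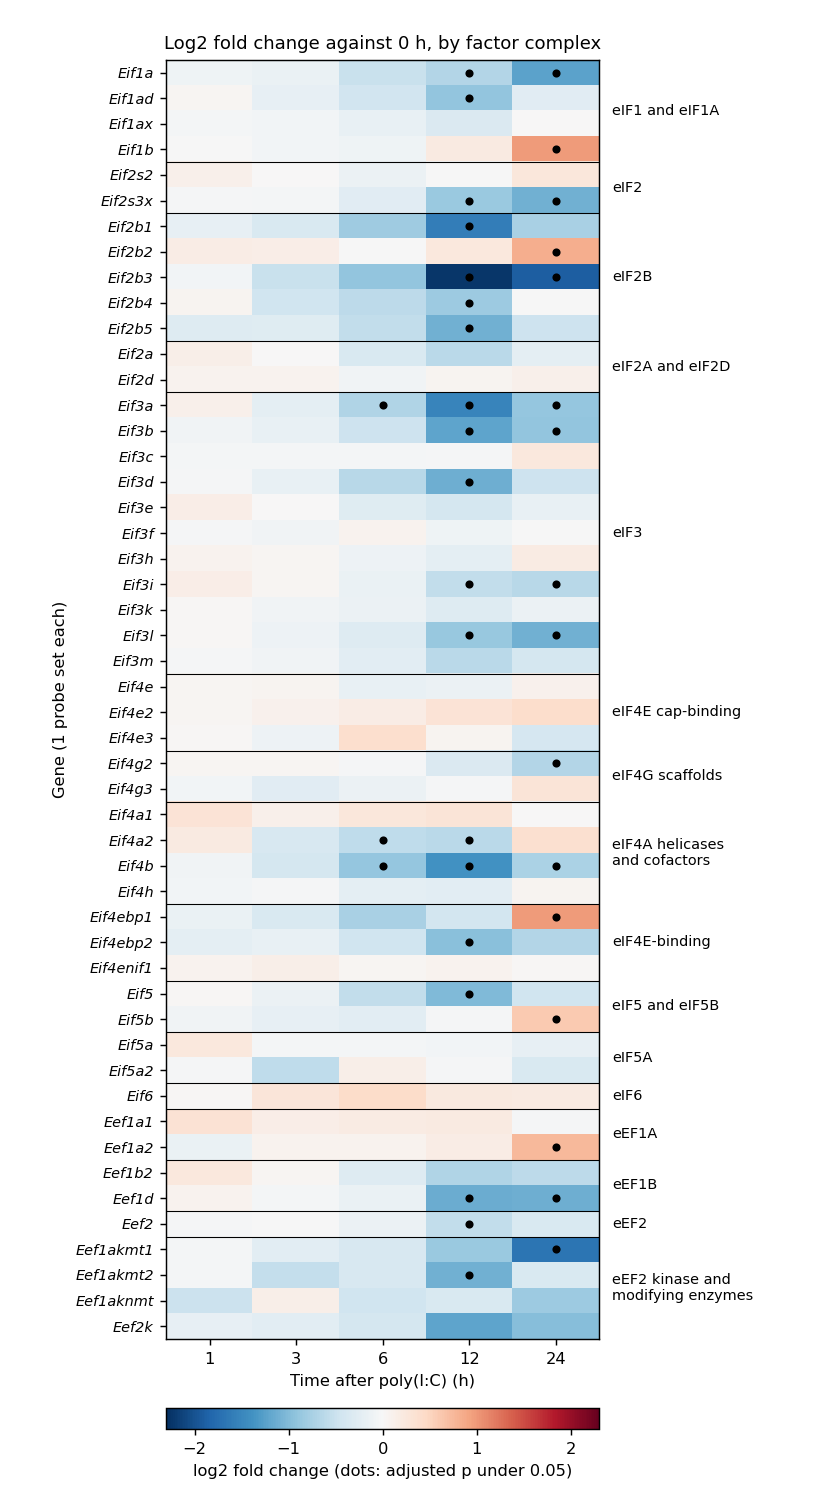
Change against 0 h on the log2 scale for the 50 genes tested (rows, grouped by factor complex) at 1, 3, 6, 12 and 24 h after poly(I:C) (columns), with a dot where the adjusted p is under 0.05. Of the 19 blue cells with dots at 12 h, 4 are in eIF2B and 5 in eIF3, and the red cells with dots at 24 h are Eif1b, Eif2b2, Eif4ebp1, Eif5b and Eef1a2.

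Within eIF3, the scaffold of the small subunit, 5 of the 11 subunit genes tested fell at 12 h (Eif3a, Eif3b, Eif3d, Eif3i and Eif3l). Of these, 4 fell again at 24 h, and no subunit gene rose. Over all tested probe sets, 18.7% were lower at 12 h and 17.5% at 24 h. The median of the 11 genes was -0.56 at 12 h and -0.40 at 24 h. Eif3a encodes the largest subunit, on which the others assemble. Its signal in experiment 1 was 10471, 10526, 9306, 5965, 3874 and 5868 from the 0 h to the 24 h array in order of time, and in experiment 2 it was 7791, 9219, 6476, 5203, 2561 and 4052. From 6 h on, every array lay below both 0 h arrays. The changes were -0.70 ± 0.16 (SE; adjusted p = 0.0284) at 6 h, -1.52 ± 0.16 (SE; adjusted p = 0.000117) at 12 h, which is 2.86-fold lower, and -0.89 ± 0.16 (SE; adjusted p = 0.00258) at 24 h. All 3 other tested probe sets of Eif3a were also lower at 12 and 24 h.

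Eif3b, which encodes a core subunit with an RNA-binding domain, measured 2631 and 2514 at 0 h in experiments 1 and 2, 1177 and 1026 at 12 h, then 1693 and 1095 at 24 h. Its 12 and 24 h arrays did not overlap those of 0 h, and the change was -1.22 ± 0.20 (SE; adjusted p = 0.00177) at 12 h and -0.91 ± 0.20 (SE; adjusted p = 0.00827) at 24 h. Eif3d, whose product can itself bind the cap of some mRNAs, measured 5692 and 5519 at 0 h, 3123 and 2089.9 at 12 h, then 4569.7 and 3509 at 24 h. It lay below both 0 h arrays at each of those times, with -1.13 ± 0.19 (SE; adjusted p = 0.00213) at 12 h and no call at 24 h (-0.48, 95% interval -0.91 to -0.06). Eif3l measured 6011 and 5275 at 0 h, 2878 and 3266 at 12 h, then 2915 and 2335 at 24 h, again without overlap, and changed by -0.87 and -1.10 (adjusted p = 0.00405 and 0.00121). Eif3i, a small core subunit, changed by -0.56 and -0.64 (adjusted p = 0.0471 and 0.029). At 24 h its arrays overlapped those of 0 h (8571 and 11078 at 0 h, 4506 and 8658 at 24 h). The second tested probe sets of Eif3i at 12 h and of Eif3l at 24 h were not called (-0.76 and -1.33).

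The other 6 subunit genes, Eif3c, Eif3e, Eif3f, Eif3h, Eif3k and Eif3m, were called at no time. Their changes at 12 h ran from -0.63 for Eif3m, with an adjusted p of 0.0537, to -0.03 for Eif3c, whose 95% interval was -0.35 to 0.29. Eif3c, which with Eif3a forms the core, had 6368 and 7036 at 0 h versus 6329 and 6799.7 at 12 h. At 24 h Eif3h and Eif3k differed between the experiments, with 4722 and 10404 for Eif3h against 5653 and 6712 at 0 h, and 3234 and 8790 for Eif3k against 5398 and 6285. In both, experiment 1 was lower and experiment 2 higher than its own 0 h array. No difference between subunits was tested. The 12 h calls of Eif3a, Eif3b and Eif3d stood when any 1 array was left out; that of Eif3l ended without the 0 h array of experiment 1 (adjusted p = 0.0542), and that of Eif3i ended without 10 of the 12 arrays, each left out alone (adjusted p up to 0.267). At 24 h the calls of Eif3a and Eif3l stood, that of Eif3b ended without either 0 h array (up to 0.0753) and that of Eif3i with 5 of the arrays left out in turn, either 0 h array among them (up to 0.141). The 6 h call of Eif3a ended without either array of 0, 3 or 6 h (up to 0.342).

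**Figure D3:**
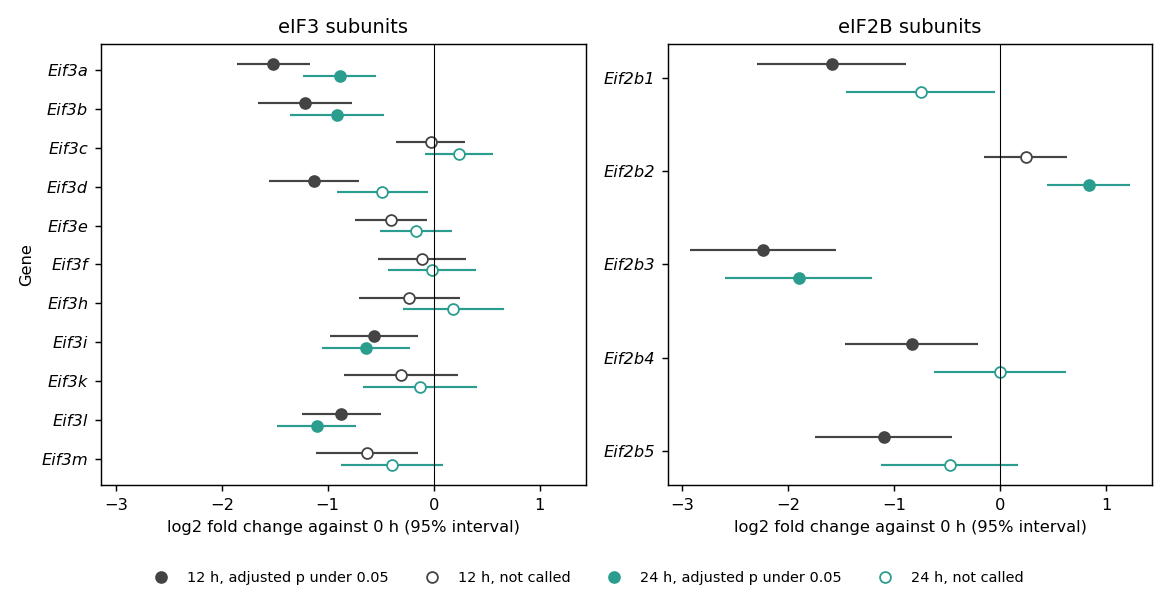
Log2 fold change against 0 h (horizontal axis, with 95% intervals from the limma fit) of the eIF3 subunit genes (left) and the eIF2B subunit genes (right) at 12 h (grey) and 24 h (green); filled points have an adjusted p under 0.05. In eIF3 5 of 11 points are filled at 12 h, and in eIF2B 4 of 5 are filled at 12 h on the lower side and Eif2b2 is filled at 24 h on the higher side.

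eIF2B, the exchange factor that recharges eIF2, is made of 5 different subunits, and 4 of the 5 genes fell at 12 h with a median over all 5 of -1.10. At 24 h 1 was lower and 1 higher. Over all tested probe sets, 18.7% were lower at 12 h, and at 24 h 17.5% were lower and 9.23% higher. Eif2b3, the gamma subunit of the catalytic part, had the lowest 12 h value of the 50 genes. In experiment 1 its signal was 932, 789.8, 692, 369.6, 166 and 309.7 from 0 to 24 h, and in experiment 2 912, 990.5, 601, 638, 199.9 and 178. All 12 and 24 h arrays were far below those of 0 h, at -2.24 ± 0.31 (SE; adjusted p = 0.000666) or 4.73-fold lower at 12 h, and -1.90 ± 0.31 (SE; adjusted p = 0.0018) or 3.74-fold lower at 24 h. Both calls stood without any 1 array.

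Eif2b1, the alpha subunit of the regulatory part, measured 1206 and 1405 at 0 h, 558 and 317 at 12 h, then 965 and 607 at 24 h. It lay below both 0 h arrays at both times, with -1.59 ± 0.32 (SE; adjusted p = 0.00472) at 12 h and no call at 24 h (-0.75, 95% interval -1.45 to -0.05). Eif2b5, the catalytic epsilon subunit, went from 902 and 807 at 0 h to 420.2 and 361 at 12 h, a change of -1.10 ± 0.29 (SE; adjusted p = 0.0188). Eif2b4, the delta subunit, changed by -0.84 (adjusted p = 0.0497) at 12 h, and at 24 h its 2 arrays were 948 and 469, on either side of the 0 h arrays (696 and 643). Without single arrays the 12 h call of Eif2b4 ended in 10 of 12 cases (adjusted p up to 0.231), that of Eif2b5 without either 0 or 12 h array (up to 0.123), and that of Eif2b1 without the 0 or 12 h array of experiment 2 (up to 0.0575).

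Eif2b2, the beta subunit, moved the other way. It measured 2353 and 3137 at 0 h, 2658 and 3894 at 12 h, then 3433 and 6895 at 24 h. Both 24 h arrays lay above both 0 h arrays, with 0.84 ± 0.18 (SE; adjusted p = 0.00669) or 1.79-fold higher, and at 12 h there was no call (0.24, 95% interval -0.15 to 0.64). A second probe set rose by 0.80 at 24 h (adjusted p = 0.00657), and the third had 0.39 and was not called. The call of the brightest probe set ended without the 0 h array of experiment 2 (adjusted p = 0.0883). Its name carries an x, which the maker gives to probe sets with probes that can match other transcripts. The brightest probe sets of Eif4ebp1, Eif2s3x and Eif4h carry it too. So do, among others, the probe sets of Eif2a, Eif2d and Eif5a that are called below where the brightest was not, and that of Tufm.

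For eIF2 itself, Eif2s3x, the X-linked gene of the gamma subunit that binds GTP and the initiator tRNA, fell at both late times. It measured 7491 and 7524 at 0 h, 3762 and 4526 at 12 h, then 3431 and 3494 at 24 h, with no overlap. The changes were -0.86 ± 0.14 (SE; adjusted p = 0.0015) and -1.11 ± 0.14 (SE; adjusted p = 0.000368), and 2 other tested probe sets were lower at both times. Eif2s2, the beta subunit, had 9849 and 12119 at 0 h versus 9422 and 12528 at 12 h and was not called (-0.01, 95% interval -0.29 to 0.28). Of its 5 other tested probe sets, 1 with a low signal was lower at 12 h. The alpha subunit gene was not analysed here. The alternative factors Eif2a and Eif2d, which can place initiator tRNA without eIF2, had -0.61 and 0.05 at 12 h (adjusted p = 0.0973 and 0.842). For Eif2a another probe set was lower at 12 h (-1.17, adjusted p = 0.0247), and for Eif2d another was higher (0.93, adjusted p = 0.0153), the only member probe set called higher at that time.

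Among the factors at the cap, the helicase cofactor Eif4b and the helicase Eif4a2 fell. No cap-binding eIF4E gene was called by its brightest probe set. The Eif4b signal in experiment 1 was 2739.6, 2526, 2040.5, 1310.3, 937 and 1823 over the 6 times, and in experiment 2 3383, 3256, 2582, 2024, 1399 and 1831. All arrays from 3 h on were below both 0 h arrays, and at 3 h the fit made no call (-0.40, adjusted p = 0.676). The changes were -0.90 ± 0.18 (SE; adjusted p = 0.0183) at 6 h, -1.40 ± 0.18 (SE; adjusted p = 0.000459) at 12 h and -0.73 ± 0.18 (SE; adjusted p = 0.0145) at 24 h. Both other tested probe sets of Eif4b were lower at 12 h and 1 of them at 24 h.

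Eif4a2, a close paralog of the main helicase Eif4a1, fell at 6 and 12 h and rose from 12 to 24 h. Its signal was 5903, 7234, 4752, 3798, 3642 and 7504 from 0 to 24 h in experiment 1 and 6789.6, 7410.1, 5010.5, 4633, 4636 and 8897 in experiment 2. At 3, 6 and 12 h all arrays lay below both 0 h arrays, and at 24 h both lay above them. The change against 0 h was -0.59 ± 0.14 (SE; adjusted p = 0.0401) at 6 h, -0.62 ± 0.14 (SE; adjusted p = 0.00983) at 12 h and 0.37, 95% interval 0.05 to 0.68, not called, at 24 h. From 12 to 24 h the gene rose by 0.99 ± 0.14 (SE; adjusted p = 0.00969), 1.98-fold. Eif4a1 had 16376 and 19562 at 0 h versus 18000 and 27153 at 12 h and was not called at any time, with 0.30, 95% interval -0.19 to 0.80 at 12 h. Eif4h, the other cofactor, was not called either (-0.24 at 12 h, adjusted p = 0.187).

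The calls of Eif4b and Eif4a2 differed in how they stood against single arrays. The 12 h call of Eif4b stood in every case; its 24 h call ended without either 0 h array (adjusted p up to 0.0996) and its 6 h call without either 0 or 6 h array (up to 0.257). For Eif4a2 the 6 h call ended with 10 of 12 arrays left out in turn (up to 0.352), the 12 h call without either 0 h array or the 12 h array of experiment 1 (up to 0.0765), and the rise from 12 to 24 h without the 12 h array of experiment 1 (0.0844).

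Eif4ebp1 and Eif4ebp2 encode 4E-binding proteins, inhibitors of cap binding that mTOR phosphorylates. Eif4ebp1 signals in experiment 1 were 3458, 3119.7, 2765, 1816, 1792 and 5956 from 0 to 24 h, and in experiment 2 5377, 4858, 4126, 3588, 5784 and 12168. Both 24 h arrays were above both 0 h arrays, and in each experiment the 24 h array was the highest of its 6. The gene rose by 0.98 ± 0.25 (SE; adjusted p = 0.0155) at 24 h and by 1.40 ± 0.25 (SE; adjusted p = 0.0202) from 12 to 24 h, 2.64-fold, with -0.42, 95% interval -0.97 to 0.13 and no call at 12 h. A second probe set also rose, by 0.82 and 1.02 (adjusted p = 0.0136 and 0.0268), and the third, with a low signal, was not called. The call at 24 h ended without the 0 h array of experiment 2 (adjusted p = 0.141) and that from 12 to 24 h without the 12 h array of experiment 1 (0.113).

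Eif4ebp2 went from 2406 and 1604 at 0 h to 1309.7 and 770.3 at 12 h, then 2055 and 733 at 24 h. The 12 h arrays lay below both 0 h arrays and the 24 h arrays on either side of the lower one, with -0.96 ± 0.27 (SE; adjusted p = 0.0254) at 12 h and -0.67 (adjusted p = 0.0957) at 24 h. Its 3 other tested probe sets were lower at both times. The 12 h call ended without either array of 0 or 12 h (adjusted p up to 0.137). The third gene of the group, Eif4enif1, which carries eIF4E into the nucleus, was not called (0.07 at 12 h, adjusted p = 0.827).

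Of the cap-binding genes, Eif4e had 4756 and 5887 at 0 h versus 4185 and 5509 at 12 h (-0.14, 95% interval -0.45 to 0.17). Another probe set of Eif4e was called lower at 12 h (-0.85). Eif4e2 and Eif4e3 had 0.32 and 0.06 at 12 h, with adjusted p = 0.431 and 0.86. Among the scaffolds, Eif4g2 (DAP5, which lacks the eIF4E-binding part) measured 19179 and 17334 at 0 h, 16048 and 12958 at 12 h, then 15172 and 8499 at 24 h. It lay below both 0 h arrays at 24 h, with -0.68 ± 0.22 (SE; adjusted p = 0.0416); this call ended with 11 of 12 arrays left out in turn (adjusted p up to 0.226). Eif4g3 was not called (-0.03 at 12 h and 0.29 at 24 h, adjusted p = 0.932 and 0.403).

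**Figure D4:**
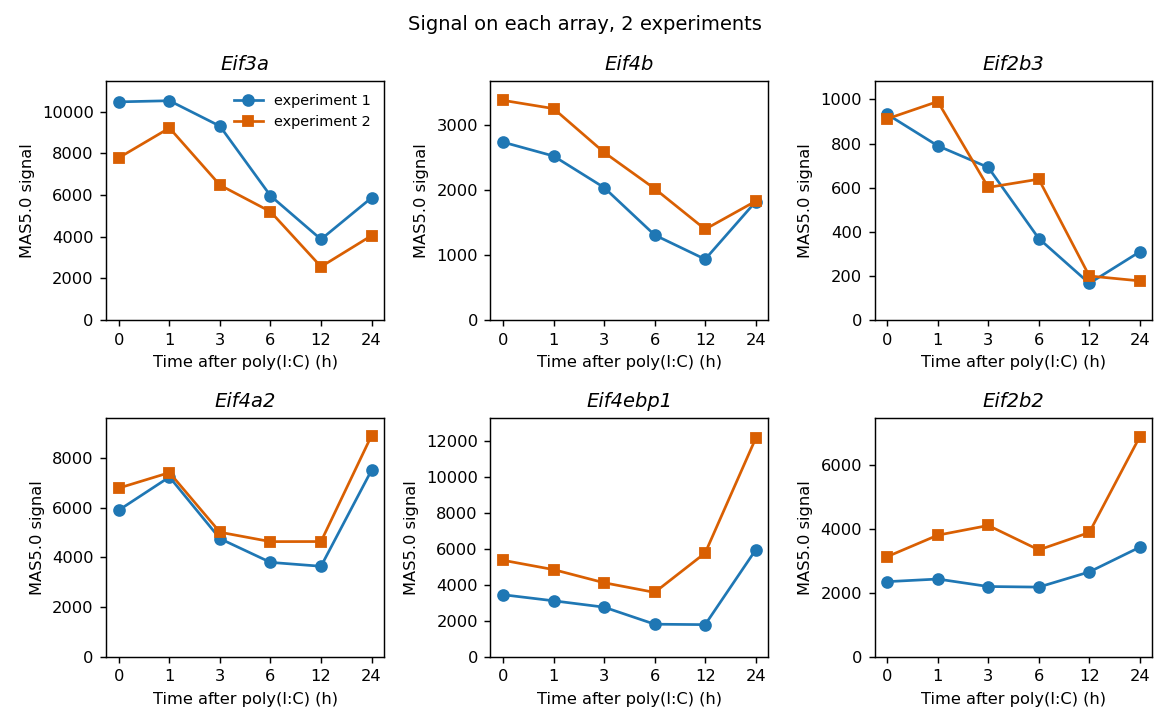
MAS5.0 signal on each array (vertical axis, linear, from 0) over the 6 times in h (horizontal axis, evenly spaced) for Eif3a, Eif4b, Eif2b3, Eif4a2, Eif4ebp1 and Eif2b2, with experiment 1 as circles and experiment 2 as squares. Eif3a, Eif4b and Eif2b3 lie lower at 12 h than at 0 h in both experiments, and Eif4a2, Eif4ebp1 and Eif2b2 lie higher at 24 h than at 12 h.

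In the eIF1 and eIF1A group, put together by symbol, Eif1ad and Eif1a fell at 12 h and Eif1b rose at 24 h. Eif1b, a paralog of the eIF1 gene, measured 2216 and 1974 at 0 h, 1914 and 3046 at 12 h, then 3144 and 5425 at 24 h. Both 24 h arrays lay above both 0 h arrays, with 0.98 ± 0.25 (SE; adjusted p = 0.0167) or 1.97-fold higher. Eif1a measured 3746 and 3474 at 0 h versus 3033 and 1656 followed by 2004 and 1175 at 12 and 24 h, without overlap, with -0.68 ± 0.22 (SE; adjusted p = 0.0422) and -1.22 ± 0.22 (SE; adjusted p = 0.00299). Eif1ad, an eIF1A domain protein, went from 1477 and 2009 at 0 h to 790.5 and 1040.3 at 12 h, without overlap, at -0.91 ± 0.16 (SE; adjusted p = 0.00245), and was not called at 24 h (-0.26). The second tested probe sets of Eif1a and Eif1ad were not called at 12 h (-0.69 and -0.71), and that of Eif1a was called lower at 24 h. Eif1a and Eif1ax are close copies, and probes for either may detect both. The call of Eif1b ended without the 0 or 24 h array of experiment 2 (adjusted p up to 0.165), and that of Eif1a at 12 h with 9 of 12 arrays left out in turn (up to 0.322), while its 24 h call and that of Eif1ad stood.

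Eif5, the activator of GTP hydrolysis by eIF2, measured 8845 and 8965 at 0 h, 4913 and 3899 at 12 h, then 6623 and 6364 at 24 h. The arrays of both late times lay below both 0 h arrays, with -1.02 ± 0.17 (SE; adjusted p = 0.00188) at 12 h, 2.03-fold lower, and -0.46 (adjusted p = 0.0732) at 24 h. Of the 4 other tested probe sets of Eif5, 3 were lower at 12 h and 1 at 24 h. Eif5b, the GTPase that joins the subunits, measured 1743 and 1642 at 0 h versus 2541 and 2586 at 24 h, and rose by 0.60 ± 0.17 (SE; adjusted p = 0.0278). A second probe set rose by 0.59 (adjusted p = 0.047), and the third, with a low signal, had -1.01 and was not called (adjusted p = 0.122). Its 24 h call ended without either 0 h array or the 24 h array of experiment 2 (adjusted p up to 0.163), and that of Eif5 at 12 h stood. Eif5a, which helps the ribosome through hard-to-join residues, Eif5a2 and Eif6, an anti-association factor of the large subunit, were called at no time. At 12 h they had -0.06, -0.04 and 0.23 (adjusted p = 0.841, 0.966 and 0.341). The other tested probe set of Eif5a was called lower at 12 h (-0.65).

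Of the elongation factors proper, Eef1d and Eef2 fell at 12 h, Eef1a2 rose at 24 h, and Eef1a1 and Eef1b2 were not called. Eef1d, the delta subunit of the exchange factor, measured 2744 and 3622 at 0 h, 1406 and 1419.7 at 12 h, then 1053 and 1979.9 at 24 h. All 4 late arrays lay below both 0 h arrays, with -1.15 ± 0.21 (SE; adjusted p = 0.0033) and -1.12 ± 0.21 (SE; adjusted p = 0.00401). Eef2, the translocase, measured 9163 and 10477 at 0 h versus 6190.4 and 7008 at 12 h, with -0.57 ± 0.15 (SE; adjusted p = 0.0191) and no call at 24 h (-0.34). Eef1a2, known as the form of muscle and neurons, measured 617 and 536 at 0 h versus 944 and 1021 at 24 h, without overlap, and rose by 0.75 ± 0.20 (SE; adjusted p = 0.0178).

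Eef1a1, the main form, had 29270 and 34911 at 0 h versus 27530 and 49910 at 12 h (0.21, 95% interval -0.19 to 0.62). Eef1b2 had 11717 and 11946 at 0 h versus 4027 and 14937 at 24 h, so that the experiments went opposite ways. Both calls of Eef1d stood without any 1 array; the call of Eef2 ended without either 0 or 12 h array (adjusted p up to 0.103), and that of Eef1a2 without either 0 h array (up to 0.151). Among the modifying enzymes, the lysine methyltransferases of eEF1A Eef1akmt2 and Eef1akmt1 fell. Eef1akmt2 had 349 and 265 at 0 h versus 145 and 121 at 12 h, a change of -1.11 ± 0.24 (SE; adjusted p = 0.00688). Eef1akmt1 had 1763 and 1854 at 0 h versus 845 and 357 at 24 h, a change of -1.69 ± 0.33 (SE; adjusted p = 0.00467). Neither late pair overlapped the 0 h arrays. These calls ended without the 0 h array of experiment 1 for Eef1akmt2 (adjusted p = 0.074) and without that of experiment 2 for Eef1akmt1 (0.0587). Of the 3 other tested probe sets of Eef1akmt1, 2 were lower at 24 h, and the last, with a low signal, had 0.43 and was not called. Eef2k, the kinase that inhibits eEF2, had 138 and 118 at 0 h versus 31.1 and 65.4 at 12 h and was not called (-1.21, 95% interval -2.21 to -0.22).

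Probe sets of the same gene did not always give the same call. Of 32 genes with several tested probe sets, 20 had the same call in all of them at 12 h and 20 at 24 h, and none had opposite calls at either time. In 8 genes at 12 h and 5 at 24 h the brightest probe set was not called and another was. Genes with a wide gap, chosen after their values were seen, are Eif1ax, Eif4e and Eif5a, and the arrays cannot say which transcripts the probe sets share. For Eif1ax the brightest had -0.33 and 0.00 at 12 and 24 h, and the other -1.69 and -3.19 (adjusted p = 0.0171 and 0.000689), from 451 and 389.7 at 0 h to 12.0 and 65.8 at 24 h, where signals this low make the size depend on the added 16. For Eif4e it was 0.10 at 24 h against -0.88 (adjusted p = 0.00919), while the others, both with low signals, had -0.50 and 1.29 (adjusted p = 0.206 and 0.0504). For Eif5a it was -0.18 against -1.18 (adjusted p = 0.00347). For Eif4g2, where the brightest fell by 0.68 at 24 h, 2 others fell by 2.35 and 1.25 and the last had -0.25. Differences between probe sets were not tested.

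**Figure D5:**
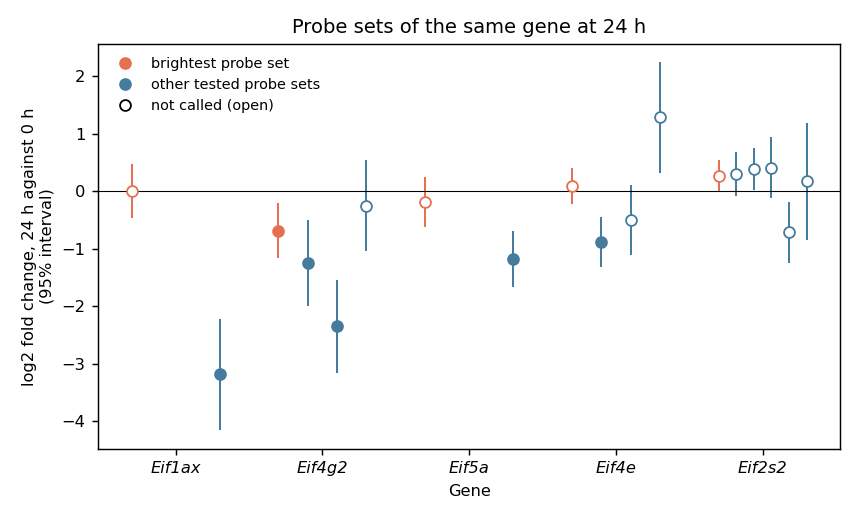
Log2 fold change at 24 h against 0 h (vertical axis, with 95% intervals from the limma fit) of each tested probe set of Eif1ax, Eif4g2, Eif5a, Eif4e and Eif2s2, brightest probe set in orange and the others in blue from left to right by falling mean signal; filled points have an adjusted p under 0.05. For Eif1ax, Eif5a and Eif4e the brightest probe set is open and another is filled below 0.

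The 2 experiments moved the same way for every called gene at its time. With n = 2 a call nearly requires such agreement, so it is no separate support for the calls. Over all 50 genes, the ratio to the experiment's own 0 h array had opposite signs in 19 genes at 1 h, 16 at 3 h, 12 at 6 h, 11 at 12 h and 17 at 24 h. Over all tested probe sets the same share was 47.8%, 34.6%, 27.9%, 23.6% and 32.1%. At 12 h 34 of the 50 genes were below 0 in both experiments and 5 above in both, and over all tested probe sets the share below 0 in both was 50.3%.

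Genes around these factors were taken from 5 lists of translation control: eIF2α kinases and phosphatase subunits with their target factors, mTOR and MNK signaling, poly(A)-binding proteins and partners, other initiation, termination and recycling factors, and mitochondrial translation factors. Of 43 tested genes, 0 were called at 1 and 3 h, and at 6 h 1 was higher and 1 was lower. By 12 h there were 5 that rose and 11 that fell, and by 24 h 4 and 15. Over all tested probe sets, 9.32% were called higher and 18.7% lower by 12 h, versus 9.23% higher with 17.5% lower by 24 h. The median over the 43 genes was -0.42 at 12 h and -0.34 at 24 h. In the eIF2α list, 3 of 8 were higher at 12 h (Ddit3, Eif2ak2 and Ppp1r15a) and 3 at 24 h (Atf4, Ddit3 and Ppp1r15a), with Eif2ak3 lower at each time and Eif2ak2 not called at 24 h. Of 12 other initiation, termination and recycling factors, 4 were lower at 12 h and 6 at 24 h and none was higher, and of 7 mitochondrial factors 3 were lower at each time.

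Abce1, the ATPase that splits ribosomes after termination, measured 3214 and 3125 at 0 h, 459 and 522 at 12 h, then 946 and 450 at 24 h, and fell by 2.66 ± 0.28 (SE; adjusted p = 0.000131) at 12 h. Pelo, which rescues stalled ribosomes together with it, had 175 and 207 at 0 h, 20.9 and 30.1 at 12 h, then 134 and 147 at 24 h. It was called lower at 12 h and higher from 12 to 24 h, with limma adjusted p = 0.000917 and 0.0206. Its 12 h signals lie near the 16 added before the logarithm, so that no size is given. Neither gene's 12 h arrays overlapped those of 0 h. Ddit3 (CHOP), a transcription factor of the integrated stress response, had 546 and 924 at 0 h, 2172 and 2768 at 12 h, then 5722 and 8416 at 24 h, and rose by 1.76 ± 0.22 (SE; adjusted p = 0.00037) at 12 h and 3.26 ± 0.22 (SE; adjusted p = 6.83e-06) at 24 h. Paip2b, a repressor of poly(A)-binding protein, changed by -1.28, and the mitochondrial elongation factor Tufm by -1.26, both lower at 12 h.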

How the data were processed

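The data are 12 Affymetrix Mouse 430 2.0 arrays, 2 experiments at each of 6 times. Per the labels and the methods of the study, the authors computed the deposited intensity values with MAS5.0, with every array brought to a trimmed mean of 500 (top and bottom 2% left out). The values are linear. Arrays have no read depth, and their number limits the precision. Of 45101 probe sets, 64 controls were left out, and GEO's platform annotation names 1 gene for 34945, several for 932 and none for 9160. 8 probe sets that name a factor and another gene were left out.

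The model (limma 3.58.1, R 4.3.3) took log2(intensity + 16) with time and experiment as terms (the latter the replicate block), and used moderated tests with an intensity trend, 5 residual and 5.24 prior degrees of freedom. The experiment pairs the arrays of 1 mouse; deviations within an experiment correlated at 0.26 to 0.66 (median 0.57) over 15 pairs of times. Tests covered the 22519 probe sets whose mean reached 78.4, the median, with Benjamini-Hochberg adjustment at 0.05. A gene is represented by its probe set with the highest mean signal. The experiments were run and scaled apart, so levels are compared within them through the block. Full values are given for up to 3 genes per complex with the smallest p at 12 h and for every gene called higher, and of the genes around them for those with the 5 smallest p at 12 h. The members, lists and rules were chosen with earlier results of these data known. Promoter motifs were counted with Python 3.11.15 and pandas 2.3.3, and figures drawn with matplotlib 3.10.9. Alternatives were pseudocounts of 1 and 64, no filter, a filter at the 75th percentile, array centring, quantile normalization, no replicate block, no trend, only the 4 arrays compared, 1 probe set per gene, and each array left out.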

Additional observations from a re-analysis of the deposited data

Results flagged for a closer look

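For 2 genes the level at 24 h differed from that at 12 h by a direct test, with the changes against 0 h on opposite sides of 0. Eif4a2 rose by 0.99 from 12 to 24 h (log2, limma, adjusted p = 0.00969), with -0.62 against 0 h at 12 h and 0.37, not called, at 24 h. Eif4ebp1 rose by 1.40 from 12 to 24 h (adjusted p = 0.0202), with -0.42, not called, at 12 h and 0.98 at 24 h. Both experiments showed the rise from 12 to 24 h for both genes. The value of Eif4ebp1 below 0 at 12 h came from experiment 1 only. Its ratio to the experiment's own 0 h array was -0.942 there and 0.105 in experiment 2.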

How the results depend on the processing

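No called gene changed direction under any of the 21 alternative settings. Both experiments had the same sign for every called gene, so most settings could hardly reverse it. This is therefore no separate support for the calls. Of the 40 calls of a gene at a time, 12 held in every setting: Eef1d, Eif2b3, Eif2s3x, Eif3a, Eif3b, Eif3d, Eif4b and Eif5 at 12 h, and Eif1a, Eif2b3, Eif2s3x and Eif3l at 24 h. None of the 3 calls at 6 h did. The cause of the changes below was not tested, apart from the smaller sets of arrays and probe sets.

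Counts are of member probe sets against 0 h unless said otherwise. Of the alternative settings, only centring and quantile normalization have their background over all probe sets given above, at 12 and 24 h. For the others, a shift in a count cannot be told from a shift over all probe sets. With no filter on low values, 1 was lower at 6 h. With the filter at the 75th percentile, 0 were higher at 12 h and 9 higher from 12 to 24 h. With arrays centred on their median, 2 were lower at 6 h, 24 lower at 12 h and 14 higher at 24 h. Without the replicate block that pairs the arrays by experiment, 0 were lower at 6 h, 25 lower at 12 h, 1 higher and 19 lower at 24 h, 0 higher from 12 to 24 h, and 21 called over the 5 times, and 20 of the 40 gene calls were lost. Without a trend, 1 was lower at 6 h and 1 higher from 12 to 24 h. With the 4 arrays of the times compared, 3 h had 1 higher and 7 lower, 6 h had 1 higher and 20 lower, 24 h had 0 higher and 14 lower, and 1 higher from 12 to 24 h; the F test was not run there. With 1 probe set per gene, 6 h had 3 lower, 12 h had 0 higher and 19 lower, 24 h had 5 higher and 11 lower, 2 higher from 12 to 24 h, and 21 called over the times.

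With each array left out, the ranges were for 6 h 0 to 1 higher and 0 to 19 lower, for 12 h 0 to 2 higher and 20 to 56 lower, for 24 h 0 to 20 higher and 17 to 39 lower, 0 to 26 higher and 0 to 9 lower from 12 to 24 h, and 31 to 72 called over the 5 times. A time with 1 array left is assumed to vary like the others. The share over all probe sets was not taken for these fits, so the ranges may not be particular to the factors.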
